A study of Mus musculus with 4 samples.

Results

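The early neuron's working parts were followed here through 39 mouse genes that encode its cytoskeleton, its secretory machinery and its RNA-binding proteins. They were taken by gene symbol as a fixed list of products of young neurons, without the transcription factors that start the neuronal programme, and all 39 had an identifier among the 52636 in the count tables. Expression was read by RNA-seq in cells sorted by fluorescence as otic cells from otocysts, the closed vesicles of ectoderm from which the inner ear forms. There were 2 libraries of genotype Brg1cKO, a conditional knockout of the chromatin remodeler Brg1, and they were set against 2 libraries of genotype Control. The title places the question in how Brg1 acts on Sox2 and on proneurosensory identity in this ectoderm. Embryonic stage, strain, the Cre line, the alleles carried by the controls and the reporter used in the sort are not stated in the labels. Each library came from 3000 cells, and the labels do not say whether replicates were separate litters or sorts, so the p-values reflect library spread that may be technical.

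Young neurons leave the cell cycle, extend a process filled with microtubules and begin to build a release apparatus. Hu and Celf proteins, Nova proteins, Rbfox3 and Srrm4 bind RNA and give these cells their own mRNA stability and splicing. Doublecortin, stathmins and microtubule-associated proteins organise tubulin in the axon, and kinesins carry cargo along it. In the otocyst, neuroblasts that leave the ventral epithelium form the cochleovestibular ganglion, and such products mark them.

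The Brg1cKO libraries held 29361382 and 25875555 gene reads and the controls 15357265 and 19132360, with 20859 and 20902 genes detected in Brg1cKO against 17266 and 17086 in controls. Smarca4, the gene for Brg1, stood at 891 and 848 CPM in Brg1cKO and at 816 and 815 CPM in controls. CPM is the usual unit of reads relative to library size, scaled here between libraries by TMM (trimmed mean of M values). Whole-gene counts include reads outside any deleted exon, so Smarca4 does not check the labels. Several lists of genes from other cell types moved with the groups, and others were mixed. Summed over 10 otic epithelium genes, Brg1cKO libraries held 373 and 330 CPM against 1848 and 1765 CPM in controls, all 10 with negative fold changes. Over 13 white blood cell genes the sums were 1736 and 1647 CPM in Brg1cKO against 395 and 419 CPM in controls, and over 9 striated muscle genes 870 and 871 CPM in Brg1cKO against 192 and 118 CPM in controls, with every gene of both lists positive. Red blood cell genes were lower like the neuronal products, with a median log2 fold change of -1.76. Of 5 tested, 5 had both Brg1cKO values below both controls (lower without overlap), beside 17.8% of all genes tested. Their list's sums were 192 and 174 CPM in Brg1cKO against 566 and 577 CPM in controls. For 6 endothelial genes the sums were 2571 and 2557 CPM in Brg1cKO against 2345 and 2216 CPM in controls. Neural crest and glia genes summed to 258 and 278 CPM in Brg1cKO against 328 and 432 CPM in controls. Of 6 tested, 4 had negative and 2 positive fold changes. Head mesenchyme genes also had 4 negative and 2 positive, and hair cell genes 1 negative and 2 positive. The part of these differences in the results below was not tested, and in bulk RNA fewer neurons and less RNA per neuron cannot be told apart.

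Neuronal products as a whole stood lower in the Brg1cKO libraries. Summed over the 39 genes, the libraries held 1739 and 1785 CPM in Brg1cKO and 3479 and 3216 CPM in controls, so the mean was 52.6% of that in controls. Map1b alone made up a large part, and without it the sums were 1214 and 1242 CPM in Brg1cKO and 2688 and 2158 CPM in controls, or 50.7%. Both sums lay below both controls in each case.

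Of the 39 genes, 37 passed the filter on low counts and were tested by edgeR's quasi-likelihood F-test, and 34 of them had negative log2 fold changes, where 48.5% of all 16557 genes tested did. The median was -1.31 (quartiles -1.98 and -0.76), beside 0.03 over all genes tested. At an adjusted p under 0.05 (Benjamini-Hochberg over all genes), 0 of the 37 passed, where 0.0302% of all genes did, which is 5 genes (0.0181% lower). The smallest adjusted p was 0.139, for Stmn2. At an unadjusted p under 0.05, 16 were lower and 0 higher, beside 4.80% and 7.66% of all genes. DESeq2 called 14 of the 37, all lower, beside 3.58% of all genes in that direction, limma voom called 1, Map1b, lower (background 0.205%), and edgeR's newer moderation of the spread called 0 (background 0.217% lower). The count of 0 became 19 without control replicate 1, all lower, where 8.82% of all genes tested were called lower. Without control replicate 2 it was 18 lower and 1 higher, beside 8.39% and 8.46% of all genes. Without Brg1cKO replicate 1 it was 1, lower (background 0.116%), and without Brg1cKO replicate 2 it stayed at 0 (background 0.0734% lower). Where 1 library stands alone, its spread is taken from the other group. Without any filter, on every gene of at least 1 count, edgeR called 11, all lower, beside 1.01% of all genes.

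**Figure D1:**
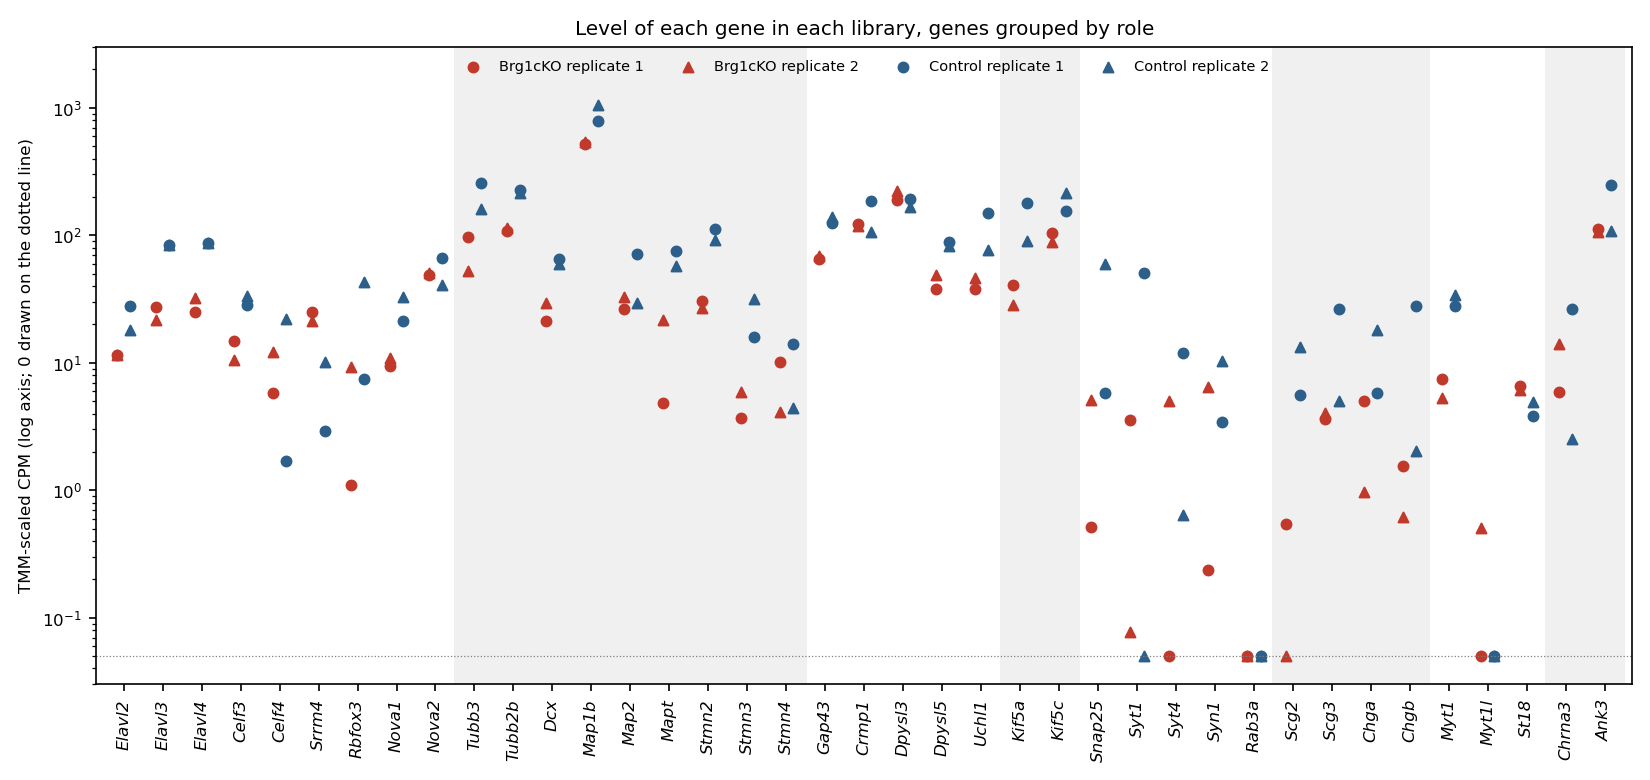
TMM-scaled CPM (log axis) of each of the 39 genes in each library, grouped by role from left to right, with Brg1cKO libraries in red left of controls in blue. Red points lie below blue for 23 genes, while synaptic and granin genes scatter widely and Rab3a is at 0 in all 4 libraries.

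Seen library by library, 23 of the 39 genes had both Brg1cKO values below both controls, and 2 had both above. Over all genes tested, 17.8% were lower without overlap and 26.3% higher. Among the 29 genes that averaged at least 10 CPM over the 4 libraries, 19 lay lower without overlap, 1 higher and 9 overlapped, beside 22.1% and 23.0% of all genes at that level. With 2 libraries against 2, an exact permutation test cannot go below p = 0.333, so these counts carry no test. The ratio of Brg1cKO to control means in these 29 had a median of 0.408 and ran from 0.0713 for Syt1 to 3.56 for Srrm4. Of the 37 genes tested, 33 reached the filter's minimum of 0.444 CPM in all 4 libraries. Syt4, Syn1 and Scg2 reached it in both controls but in only 1 Brg1cKO library, so the controls were enough to keep them. Syt1 reached it in 1 library of each group. The number that reached it in both controls and in neither Brg1cKO library was 0.

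The Hu proteins bind AU-rich elements in mRNA and are among the earliest cytoplasmic signs of a neuron. Elavl3 stood at 27.2 and 21.6 CPM in Brg1cKO and at 84.5 and 84.3 CPM in controls. Elavl4 stood at 25.03 and 32.3 CPM in Brg1cKO and at 87.2 and 87.7 CPM in controls. For both, the control libraries were nearly equal and the Brg1cKO libraries lay far below them. Their log2 fold changes were -1.79 ± 0.368 and -1.61 ± 0.357 (SE, n = 2 each; adjusted p = 0.194 and 0.228, edgeR), with 95% intervals from -2.65 to -0.93 and from -2.45 to -0.77. Elavl2, the third neuronal Hu gene, stood at 11.6 and 11.5 CPM in Brg1cKO and at 28.0 and 17.9 CPM in controls, without overlap, and its interval of -2.61 to 0.63 spanned 0. In mm10 Elavl3 lies on chromosome 9 (22015005 to 22052023) and Elavl4 on chromosome 4 (110203722 to 110351909).

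Splicing regulators were less uniform. Celf3 stood at 14.8 and 10.6 CPM in Brg1cKO and at 28.6 and 33.5 CPM in controls. Nova1, a neuronal splicing factor, stood at 9.46 and 10.9 CPM in Brg1cKO and at 21.3 and 32.9 CPM in controls. Neither overlapped. Rbfox3, the NeuN antigen of maturing neurons, stood at 1.09 and 9.29 CPM in Brg1cKO and at 7.47 and 42.7 CPM in controls, and Celf4 at 5.81 and 12.1 CPM in Brg1cKO and at 1.69 and 21.9 CPM in controls. Both overlapped, with replicates several-fold apart. Nova2 stood at 48.7 and 50.2 CPM in Brg1cKO, between the controls at 65.8 and 40.7 CPM. It shares 2652 of its 8372 exonic bases with Gm26821 on the opposite strand. Its count thus depends on the strand setting of the counting, which no source used here gives. Srrm4, which turns on neural microexons, ran the other way, with 25.1 and 21.2 CPM in Brg1cKO and 2.92 and 10.1 CPM in controls. It was the 1 gene above 10 CPM that was higher without overlap, but its log2 fold change of 1.83 ± 0.889 (SE, n = 2 each) had a 95% interval from -0.27 to 3.93 (adjusted p = 0.486, edgeR).

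Tubulin and its partners formed the most abundant group, and all 9 had negative fold changes. Tubb3, the neuronal beta-tubulin recognised by the TUJ1 antibody, stood at 96.7 and 52.2 CPM in Brg1cKO and at 255 and 162 CPM in controls. Tubb2b, a beta-tubulin of migrating neurons, stood at 108 and 115 CPM in Brg1cKO and at 228 and 214 CPM in controls. Both were lower without overlap. Of the 75-base stretches in Tubb2b transcripts, 30.2% also stand in Tubb2a or its pseudogene, so its count is uncertain. The log2 fold changes were -1.49 ± 0.364 for Tubb3 and -0.99 ± 0.195 for Tubb2b (SE, n = 2 each; adjusted p = 0.285 and 0.173, edgeR).

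Map1b, the first microtubule-associated protein of growing axons, was the highest of the 39 genes in CPM, with 525 and 543 CPM in Brg1cKO and 791 and 1059 CPM in controls. Its log2 fold change of -0.79 ± 0.153 (SE, n = 2 each) lay within -1.15 to -0.43 at 95% confidence (adjusted p = 0.167, edgeR). Dcx, the doublecortin of migrating neurons, stood at 21.2 and 29.3 CPM in Brg1cKO and at 65.2 and 59.9 CPM in controls. Mapt, which encodes tau, stood at 4.85 and 21.8 CPM in Brg1cKO and at 75.6 and 57.1 CPM in controls. These 3 genes were lower without overlap, and tau had the widest gap between Brg1cKO replicates. Map2, the dendritic protein, stood at 26.5 and 32.8 CPM in Brg1cKO and at 71.1 and 29.4 CPM in controls, where only control replicate 1 lay above the rest.

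The stathmins bind free tubulin dimers. Stmn2, also called SCG10, stood at 30.3 and 27.0 CPM in Brg1cKO and at 112 and 91.9 CPM in controls, a log2 fold change of -1.83 ± 0.336 (SE, n = 2 each; 95% interval -2.62 to -1.05). Stmn3 stood at 3.72 and 5.86 CPM in Brg1cKO and at 15.9 and 31.7 CPM in controls. Both were lower without overlap, and Stmn2 had the smallest p of all 37. Stmn4 stood at 10.1 and 4.13 CPM in Brg1cKO and at 13.97 and 4.40 CPM in controls, and its replicates differed more than its groups.

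Promoter sequence is shown for the genes with the 6 smallest p that the RefSeq table (GRCm38.p6, the assembly of mm10) holds, which are Map1b, Elavl3 and Elavl4. Each line gives the 250 bases before the most upstream start, 5′ to 3′ on the gene's own minus strand, and capitals mark the E-boxes CAGATG and CAGCTG, the letters that neurogenic bHLH factors bind, and TATAAA. The windows are chr13:99516603-99516852 for Map1b, chr9:22052024-22052273 for Elavl3 and chr4:110351912-110352161 for Elavl4.
Map1b: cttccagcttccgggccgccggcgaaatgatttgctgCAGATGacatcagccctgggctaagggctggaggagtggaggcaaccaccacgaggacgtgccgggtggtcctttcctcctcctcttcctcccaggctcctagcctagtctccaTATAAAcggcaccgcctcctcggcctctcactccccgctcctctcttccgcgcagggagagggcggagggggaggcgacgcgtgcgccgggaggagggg
Elavl3: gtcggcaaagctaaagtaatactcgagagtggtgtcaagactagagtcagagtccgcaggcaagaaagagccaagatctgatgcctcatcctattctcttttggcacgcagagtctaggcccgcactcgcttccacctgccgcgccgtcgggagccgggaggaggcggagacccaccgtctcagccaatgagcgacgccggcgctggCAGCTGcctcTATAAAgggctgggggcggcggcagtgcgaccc
Elavl4: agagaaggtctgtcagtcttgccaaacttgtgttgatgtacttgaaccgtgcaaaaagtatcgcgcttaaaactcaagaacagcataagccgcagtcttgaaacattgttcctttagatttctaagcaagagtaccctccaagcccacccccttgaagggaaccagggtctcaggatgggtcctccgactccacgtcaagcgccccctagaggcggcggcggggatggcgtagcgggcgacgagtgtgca
In Elavl3, CAGCTG began 43 bases and TATAAA 33 bases before the start. In Map1b, CAGATG began 213 and TATAAA 99 bases before it, and Elavl4 held none of these letters. One or other E-box, searched on both strands, stood in 8 of the 27 member windows in the table (29.6%) and in 25.3% of 27025 genes. All letters were searched on both strands, so either orientation of TATAAA counted, and it stood in 18.5% and 13.0%. CAGCACC and GGACAG, letters from either side of the element bound by the repressor REST, stood in 14.8% and 18.5% of member windows and in 5.70% and 18.7% of all, and never 2 bases apart in a member window (0.0296% of all). A match is a description of letters, not of binding.

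Growth cone proteins split by gene. Gap43, a membrane-bound protein of the growth cone, stood at 65.2 and 69.1 CPM in Brg1cKO and at 125 and 138 CPM in controls. Dpysl5 stood at 37.8 and 48.4 CPM in Brg1cKO and at 89.3 and 82.6 CPM in controls. Both were lower without overlap, with means at 0.510 and 0.502 of those in controls. Other members of the CRMP family, which relay semaphorin signals to the cytoskeleton, did not follow that order. Crmp1 stood at 122 and 118 CPM in Brg1cKO and at 186 and 105 CPM in controls, and Dpysl3 at 188 and 222 CPM in Brg1cKO and at 194 and 168 CPM in controls. Both overlapped, with 95% intervals for the log2 fold change of -0.99 to 0.44 and -0.28 to 0.64. Uchl1, the abundant neuronal ubiquitin hydrolase known as PGP9.5, stood at 38.2 and 45.9 CPM in Brg1cKO and at 149 and 77.1 CPM in controls, without overlap. It shares 295 exonic bases with Uchl1os on the opposite strand, and no source used here gives the strand setting of the counting.

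Axonal motors were lower without overlap in both cases, beside 17.8% of all genes tested. Kif5a, the kinesin-1 heavy chain most restricted to neurons, stood at 40.7 and 28.3 CPM in Brg1cKO and at 178 and 89.9 CPM in controls. Kif5c stood at 105 and 89.0 CPM in Brg1cKO and at 156 and 216 CPM in controls. The ratio of means was 0.258 for Kif5a and 0.521 for Kif5c. The log2 fold changes were -1.96 ± 0.416 and -0.94 ± 0.251 (SE, n = 2 each; adjusted p = 0.228 and 0.312, edgeR).

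**Figure D2:**
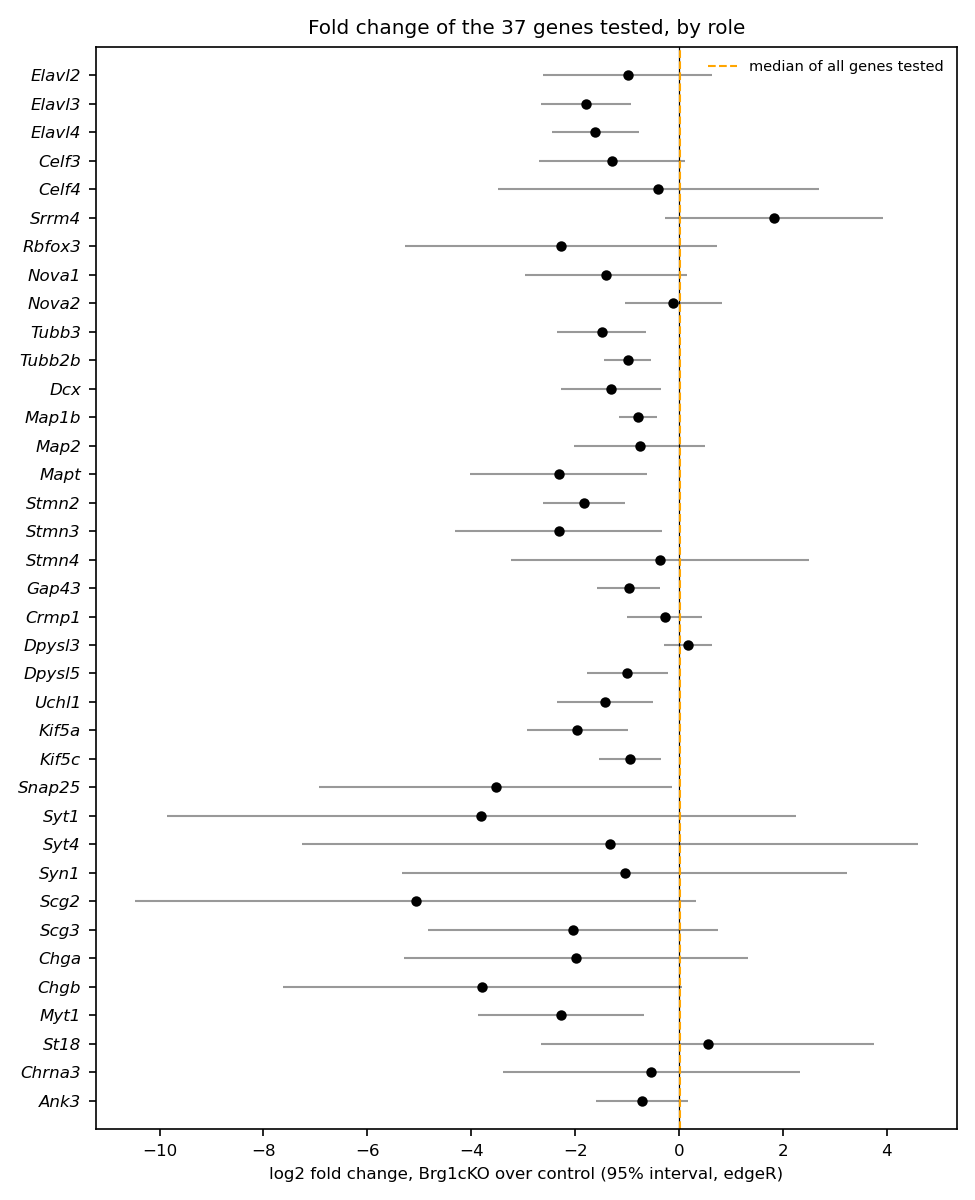
Log2 fold change, Brg1cKO over control, of the 37 genes tested by edgeR with 95% intervals, by role from top to bottom; the dashed line is the median of all genes tested. Intervals of tubulin partners, Hu genes and kinesins lie below 0 for most genes, while those of release and granin genes are several units wide.

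Release genes scattered widely between replicates. Snap25, the plasma membrane SNARE, stood at 0.512 and 5.13 CPM in Brg1cKO and at 5.78 and 59.3 CPM in controls. Syt1, the calcium sensor of synaptic vesicles, stood at 3.55 and 0.0771 CPM in Brg1cKO, against 50.9 CPM in control replicate 1 and 0 reads in control replicate 2. Snap25 was lower without overlap, though replicates lay over 4-fold apart in both groups, while Syt1 overlapped, and leaving out control replicate 1 turned the sign of Syt1. Syt4 and Syn1, also vesicle proteins, averaged under 10 CPM, overlapped, and had intervals from -7.26 to 4.60 and from -5.33 to 3.24. Rab3a, a vesicle GTPase, had 0 reads in all 4 libraries, which allows up to 0.0543 CPM over the Brg1cKO libraries and 0.0876 CPM over the controls, for counting error only. Summed over the 5 genes, the libraries held 4.30 and 16.7 CPM in Brg1cKO and 72.2 and 70.3 CPM in controls. The sums were nearly equal in controls although single genes were not.

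Granins, the cargo of dense-core vesicles, were lower without overlap in all 4 cases, beside 17.8% of all genes tested. All averaged under 10 CPM, and Scg2 reached the filter's minimum in both controls but in only 1 Brg1cKO library. Scg2 stood at 0.546 and 0 CPM in Brg1cKO and at 5.59 and 13.3 CPM in controls. Chgb stood at 1.54 and 0.617 CPM in Brg1cKO and at 27.9 and 2.02 CPM in controls. Scg3 and Chga lay close to the lower control, at 4.01 against 5.04 CPM and at 5.05 against 5.85 CPM for the nearest libraries. The group's sums were 10.8 and 5.59 CPM in Brg1cKO and 65.9 and 38.3 CPM in controls, and each of the 4 intervals for single genes included 0.

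**Figure D3:**
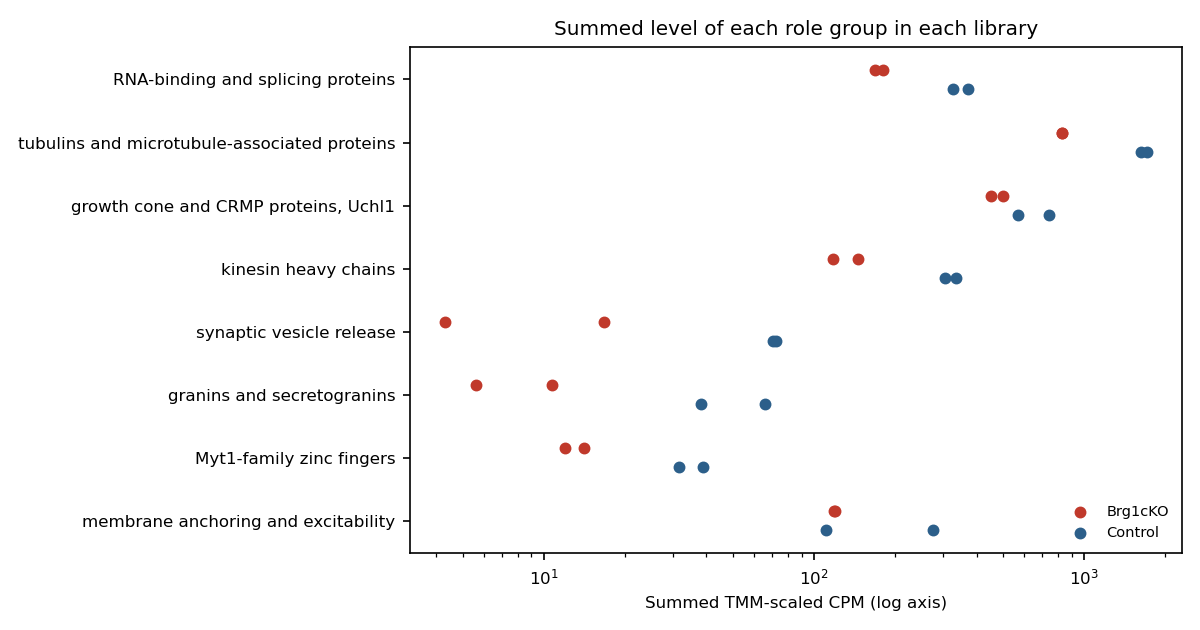
Summed TMM-scaled CPM (log axis) of each role group in each library, Brg1cKO in red above controls in blue. The 2 Brg1cKO sums lie below both control sums in every group but membrane anchoring and excitability, where Brg1cKO held 118 and 119.8 CPM and controls 275 and 111 CPM.

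Myt1-family zinc fingers, which hold down non-neuronal genes, differed among themselves. Myt1 stood at 7.48 and 5.28 CPM in Brg1cKO and at 27.9 and 33.9 CPM in controls, a log2 fold change of -2.28 ± 0.679 (SE, n = 2 each; adjusted p = 0.361, edgeR). St18 stood at 6.63 and 6.17 CPM in Brg1cKO and at 3.83 and 4.88 CPM in controls. It was the second gene higher without overlap, with an interval from -2.65 to 3.76. Myt1l, used in cell reprogramming to neurons, had 0.501 CPM in Brg1cKO replicate 2 and 0 reads in the other 3 libraries, so it missed the filter.

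At the membrane, Ank3, the ankyrin-G scaffold of the axon initial segment, stood at 112 and 106 CPM in Brg1cKO and at 249 and 108 CPM in controls. Chrna3, a ganglionic nicotinic receptor subunit, stood at 5.87 and 14.1 CPM in Brg1cKO and at 26.4 and 2.55 CPM in controls. For both, control replicate 1 stood above all other libraries and the groups overlapped.

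Levels between genes were compared as CPM per kilobase of exon. In Brg1cKO the order began with Tubb2b (48.5), Gap43 (44.1), Tubb3 (39.9), Map1b (33.7) and Dpysl3 (31.0), and in controls with Tubb3 (112), Tubb2b (96.4), Gap43 (86.4), Uchl1 (69.2) and Map1b (58.4). Tubb3 varied so widely between control libraries that its place above Tubb2b is within that spread. Srrm4 was 18th of 39 in Brg1cKO and 36th in controls, and Dpysl3 5th and 6th.

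Broadly expressed relatives of the same families gave a comparison within each library. Elavl1, the Hu protein of most cells, stood at 194 and 196 CPM in Brg1cKO and at 125 and 197 CPM in controls. Tubb5 stood at 2236 and 2197 CPM in Brg1cKO and at 2122 and 2164 CPM in controls. Kif5b stood at 303 and 346 CPM in Brg1cKO and at 313 and 304 CPM in controls. Elavl1 and Kif5b overlapped, and Tubb5 was slightly higher in Brg1cKO without overlap. Their 95% intervals for the log2 fold change, -0.32 to 0.87, -0.12 to 0.21 and -0.28 to 0.43, left out a 2-fold difference. Of 10 broadly expressed counterparts, Rest and Ptbp1 included, 3 had negative and 7 positive fold changes, with a median of 0.13. Without overlap, 4 were higher and 0 lower, beside 26.3% and 17.8% of all genes tested. Tubb4b, also a beta-tubulin, was among the higher ones, with a log2 fold change of 0.56 (95% interval 0.06 to 1.07). Celf1, among the negative ones, averaged only 0.85 CPM.

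Within a library, the length-scaled ratio of Kif5a to Kif5b was 0.154 and 0.0936 in Brg1cKO and 0.651 and 0.337 in controls. The ratio of Elavl3 to Elavl1 was 0.210 and 0.165 in Brg1cKO and 1.02 and 0.643 in controls, and that of Tubb3 to Tubb5 was 0.0770 and 0.0423 in Brg1cKO and 0.214 and 0.133 in controls. Mean ratios in Brg1cKO were thus 25.03%, 22.6% and 34.3% of those in controls, with no overlap. Uchl3, the partner of Uchl1, was itself higher without overlap, with 28.1 and 22.6 CPM in Brg1cKO and 13.1 and 22.2 CPM in controls. Each of the 9 pairs compared was lower without overlap. The exact two-sided permutation p was 0.333 for each, the smallest that 2 against 2 allows, and the same after adjustment over the 9 pairs. The neuronal gene of every pair was already lower without overlap by itself, so these ratios add no separate support. Map2, Crmp1 and Dpysl3, which overlapped, were not paired. REST itself stood at 199 and 195 CPM in Brg1cKO and at 173 and 174 CPM in controls (Rest, interval -0.24 to 0.61), and Ptbp1, which keeps neuronal exons out in other cells, at 639 and 674 CPM in Brg1cKO and at 644 and 708 CPM in controls.

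**Figure D4:**
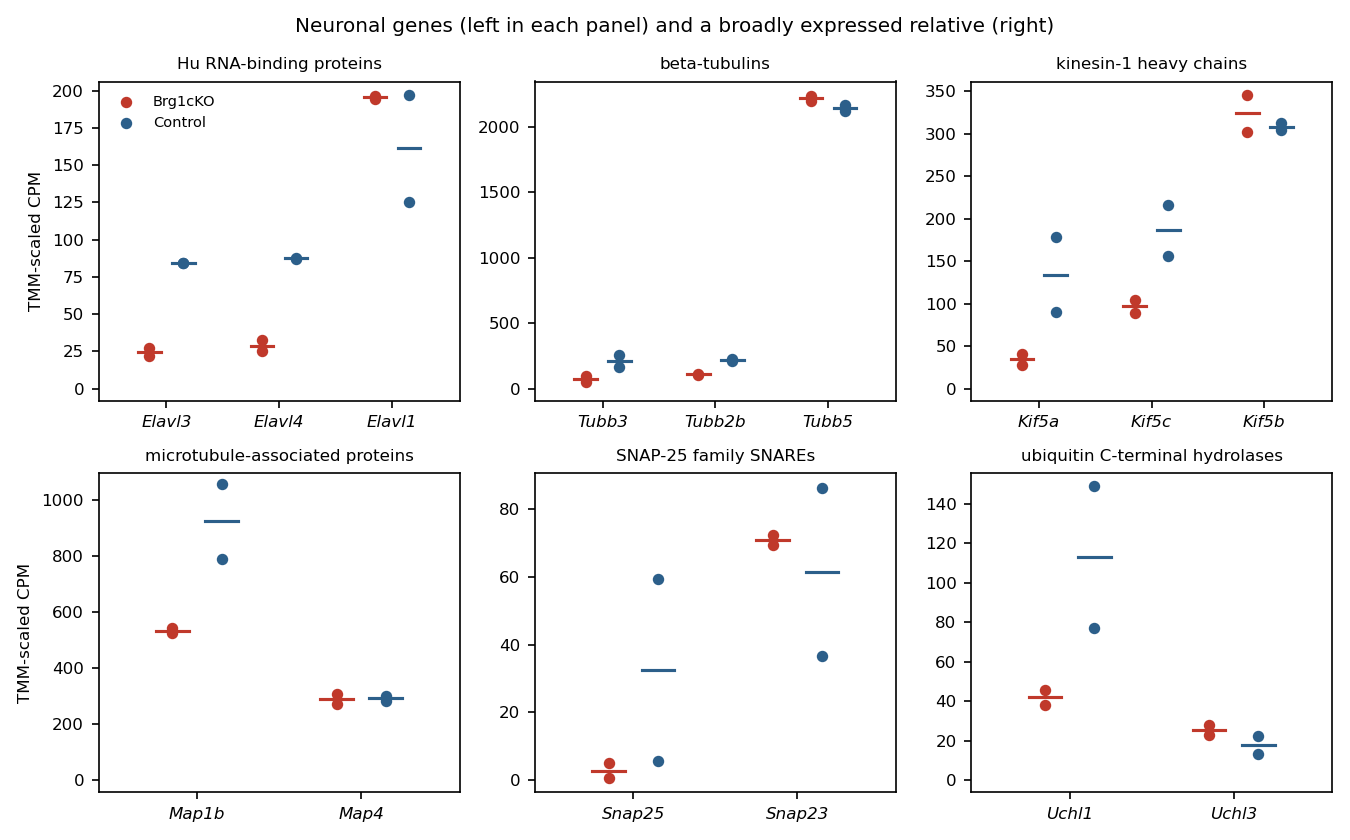
TMM-scaled CPM of neuronal genes (left in each panel) and a broadly expressed relative (right), with 1 point a library, a bar for the mean, Brg1cKO in red and controls in blue. The neuronal genes paired here lie lower in Brg1cKO in all 6 families, while Elavl1, Tubb5, Kif5b and Map4 have nearly equal or overlapping values.

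Other genes of the same machinery, 59 in 5 lists picked by role, had a median of smaller size. Of 52 tested, 38 had negative fold changes with a median of -0.60, and 24 were lower and 4 higher without overlap, beside 17.8% and 26.3% of all genes. EdgeR called 0, with 13 lower and 1 higher at an unadjusted p under 0.05, beside 4.80% and 7.66% of all genes. DESeq2 called 8, all lower, beside 3.58%, and voom and the newer moderation 1 each, Kif1a. Kif1a, the motor of synaptic vesicle precursors, stood at 59.2 and 52.7 CPM in Brg1cKO and at 178 and 212 CPM in controls (log2 fold change -1.80 ± 0.242 SE, adjusted p = 0.0840, edgeR). Dclk1, a doublecortin-like kinase, stood at 33.1 and 30.2 CPM in Brg1cKO and at 108 CPM in both controls. Nfasc, an adhesion molecule of the axon initial segment, stood at 9.02 and 5.59 CPM in Brg1cKO and at 79.1 and 42.9 CPM in controls. These 3 had the smallest p of the 52. Celf2 was the 1 higher at the unadjusted threshold, with 105 and 101 CPM in Brg1cKO and 53.8 and 66.9 CPM in controls. By list, the medians were -0.39 for tubulin and growth cone genes (11 of 15 negative), -0.89 for synaptic release (10 of 14), -0.61 for dense-core vesicles (5 of 6), -0.30 for RNA-binding proteins (5 of 8) and -1.23 for membrane and excitability genes (7 of 9).

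Regulators upstream and neurofilaments had lower medians than the 37 products. The 10 neuroblast regulators, Neurog1 and Neurod1 included, were all negative with a median of -1.98. Of them, 9 were lower without overlap, beside 17.8% of all genes tested. Neurog1, which starts otic neurogenesis, stood at 1.02 and 2.12 CPM in Brg1cKO and at 34.0 and 9.29 CPM in controls. The 5 neurofilament genes were all negative and lower without overlap, with a median of -2.24, and Nefm passed (adjusted p = 0.0371, edgeR). Whether these medians differ from that of the 37 products was not tested. Neurons from outside the ear could also carry such products. Among 7 neural tube genes, Sox1, Pax3 and Olig3 ran from 1.16 to 8.95 CPM in Brg1cKO and had 0 reads in both controls, and Nkx6-1 was also higher without overlap. Nkx2-2 was lower without overlap, with 2.66 and 1.97 CPM in Brg1cKO and 5.72 and 40.7 CPM in controls, Pax6 overlapped, and Olig2 had reads in control replicate 2 alone. The list's sums were 27.2 and 35.6 CPM in Brg1cKO and 8.77 and 50.8 CPM in controls. Their part in the levels above was not tested.

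**Figure D5:**
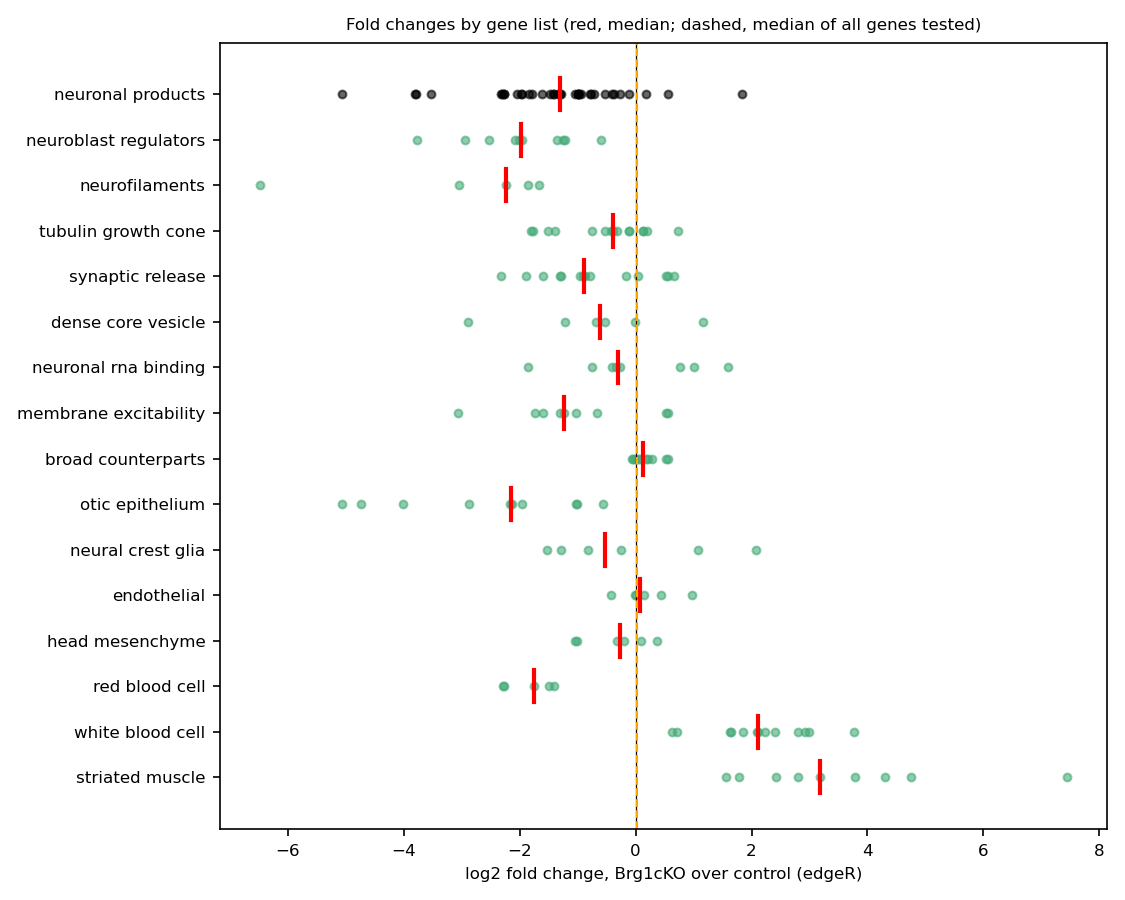
Log2 fold change, Brg1cKO over control, of every tested gene by list, with the median in red and that of all genes tested as a dashed line. Neuronal products have quartiles of -1.98 and -0.76, broadly expressed counterparts lie around 0, and white blood cell and striated muscle genes above 0.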

How the data were processed

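For each of 4 libraries the authors deposited whole-number, unnormalized counts under Ensembl gene identifiers. Libraries were made by SMART-seq Stranded, which is random-primed and keeps strand, with single reads of 75 bp, per the labels' protocols. HISAT2, HTSeq, DESeq2 and mm10 are named in the submitters' processing notes; no source used here gives their roles, versions or the strand setting. The 5 lines that name no gene were left out (genes took 64.0% and 63.7% of records in Brg1cKO, 48.2% and 49.3% in controls). Records not aligned were 9.54% and 9.41% in Brg1cKO against 20.91% and 19.14% in controls. Records that matched no gene were 14.52% and 14.96% in Brg1cKO against 21.04% and 21.55% in controls. These shares differed with the groups, and their part in the results was not tested. Symbols and lengths came from GENCODE M21 (52489 of 52636 identifiers), promoters from RefSeq.

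Counts were kept by filterByExpr (minimum count 10; 16557 genes), scaled by TMM and tested with edgeR 4.0.16 in R 4.3.3 (robust quasi-likelihood F-test, group as the only term), Benjamini-Hochberg adjusted over all genes. Standard errors are the fold change over the root of F. DESeq2 1.42.0, limma 3.58.1 voom, other scalings, filters and moderation, a replicate block, thinning and each library left out were alternatives. By rule, values per library are given for genes averaging at least 10 CPM or at 0 in both libraries of a group; Stmn4, Scg2, Chgb and St18 were added after their values were seen. The genes and lists were chosen with earlier results of these data known. Intervals come from the edgeR fit and take in the spread between libraries; limits on 0 cover counting error only.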

Additional observations from a re-analysis of the deposited data

How the results depend on the processing

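Members stayed at 0 calls under other scalings, a minimum count of 50, the newer moderation, no robust moderation, thinning, an adjusted p under 0.10 and removal of abundant gene classes. They numbered 11 on every gene with at least 1 count, 14 by DESeq2 and 1 by limma voom, and 0 to 19 with a library left out. Over all genes, 5 calls became 417 on every gene with at least 1 count, 10 at a minimum count of 50, 1048 by DESeq2, 54 by voom, 70 by the newer moderation, 38 at an adjusted p under 0.10, and 33 to 3519 with a library left out. With the replicate block, 3 members (Tubb3, Map1b, Kif5a) and 140 genes were called. The labels do not say whether libraries of the same number were paired. The correlation of their deviations over genes was -0.00528, a single value that cannot decide it. With a library left out, the median member log2 fold change ran from -1.29 to -1.04 and the summed log2 ratio from -1.0005 to -0.86. Members lower without overlap then ran from 25 to 31 and members higher without overlap from 2 to 7. A group left with 1 library overlaps less by construction, and the same counts over all genes were not taken. These 2 ranges therefore do not measure stability. Signs turned for 9 genes: Celf4 reached 0.24 by voom, 0.44 with the replicate block and -1.29 to 2.38 with a library left out, and Chrna3 0.27, 0.14 and -1.42 to 1.97. With a library left out Stmn4 ran from -1.14 to 0.70, Map2 from -1.28 to 0.017, Syt1 from -8.25 to 8.49, Syt4 from -10.06 to 1.97, Crmp1 from -0.65 to 0.19, Nova2 from -0.43 to 0.28 and Ank3 from -1.21 to 0.013. The other 28 kept their sign under every setting run. Causes were not tested, and 2 libraries a group limit all precision.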

Other observations

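Replicates of some genes lay far apart. In Brg1cKO 8 of the 37 genes tested differed over 4-fold between replicates (21.6%, beside 11.7% of all genes tested), and in controls also 8 (21.6%, beside 27.3%). Snap25, Syt1, Syt4 and Rbfox3 did so in both groups. Among all genes tested that averaged at least 10 CPM, the shares over 4-fold were 0.97% in Brg1cKO and 9.44% in controls. The 37 genes include some under 10 CPM and were not recounted at that level.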
